A study of Homo sapiens with 20 samples.

Results

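Platelet-derived growth factor BB (PDGF-BB) was given to the cells of 10 of 20 RNA-seq libraries of immortalized human pericytes, and these 10 libraries were compared with the 10 that did not receive it. All 20 libraries of the series entered the comparison, and 12111 of the 58676 genes in the count table had enough reads to be tested. The cells were the wild-type line CL 05008-CLTH from Celther, a single immortalized line kept in medium with 10% fetal bovine serum. Recombinant human PDGF-BB was used at 20 ng/mL and recombinant human eNAMPT (extracellular nicotinamide phosphoribosyltransferase) at 500 ng/mL, each for 4 hours, and cells received neither, eNAMPT alone, PDGF-BB alone or both. Each of these 4 groups, titled ctrl, NAMPT, PDGF-BB and NAMPT+PDGF-BB, held 5 libraries numbered as biological replicates. eNAMPT was thus present in 5 of the 10 libraries on each side, and the model carried eNAMPT and the replicate number as terms. The account concerns the weaker effects, above all the genes that fell. Nothing in the labels says that the replicates came from separate cultures, so the p-values measure the spread between these libraries, which may be technical.

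Pericytes are mural cells that wrap small vessels, and PDGF-BB, released by endothelium, recruits and expands them through the receptor tyrosine kinase PDGFRB. The receptor signals through ERK, PI3K-AKT and STAT routes. ERK activity induces immediate early genes within minutes, and AKT keeps FOXO transcription factors out of the nucleus, so that FOXO targets are transcribed less. Bone morphogenetic proteins (BMPs) act through a separate receptor serine kinase and SMAD1, SMAD5 and SMAD9, whose best known direct targets are the ID genes and the inhibitor SMAD6.

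Counts assigned to genes ranged from 2894878 to 4011066 per library. Mitochondrial genes took 8.64% ± 0.247 of the counts with PDGF-BB and 9.11% ± 0.415 without (SD, n = 10 each), a difference with a two-sided permutation p of 0.0074 (0.0148 adjusted over 4 library measures). The TMM scaling factor also differed, with means of 0.991 and 1.009 (permutation p 0.00184, adjusted 0.00736), while total counts (adjusted p 0.32) and spike-in share (adjusted p 0.55) did not pass. These permutations ran over all libraries without regard to eNAMPT or replicate number, unlike the gene model. Of 32 mitochondrial genes tested, 3 fell and 0 rose, where 2.58% and 5.15% of all tested genes did. Their median log2 fold change was -0.0337. What part the composition of the libraries had in the weak falls was not tested. Of 15 pericyte markers, 14 were tested, and PDGFRB lay between 104 and 156 CPM (gene counts per 1000000 of a library, TMM-scaled) in every library, although the intermediate filament gene DES had a median of 0.322 CPM. Of these 14 markers, 2 were called, both higher with PDGF-BB: the proteoglycan gene CSPG4 (0.28, adjusted p 0.00582) and NT5E (0.18, adjusted p 0.000716). A longer list of 19 pericyte markers had 17 tested, of which 2 fell and 2 rose. That was 11.8% each, against 2.58% and 5.15% of all tested genes, and with spike-in scaling 0 of the longer list fell. Of 5 smooth muscle markers 3 were tested and 2 rose, CNN1 (0.44, adjusted p 0.000246) and SMTN (0.23, adjusted p 0.000512), and the summed level of the 5 was 170 to 236 CPM with PDGF-BB and 151 to 190 CPM without, while MYH11 was at 0 in 18 of 20 libraries. Of 10 epithelial markers 3 were tested and the keratin KRT18 rose (0.36, adjusted p 8.94e-10). The sum of these 10 was 177 to 259 CPM and 142 to 202 CPM, with CDH1 at 0 in 18 libraries and GRHL2 in all 20. The part of such cells in the results was not tested. The leukocyte marker PTPRC was at 0 in 17 of 20 libraries. The summed level of the 10 leukocyte markers was 16.7 to 27.5 CPM with PDGF-BB and 19.1 to 25.7 CPM without, and that of the 10 endothelial markers 17.6 to 28.7 CPM and 15.1 to 28.4 CPM. PDGFRB itself had a change of 0.11 on the log2 scale (SE 0.05, adjusted p 0.231) and its partner PDGFRA one of -0.07 (SE 0.06, adjusted p 0.578).

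With PDGF-BB, 313 genes fell (2.58% of those tested) and 624 rose (5.15%), together 937 genes or 7.74%, at an adjusted p under 0.05 in edgeR's quasi-likelihood test. Changes in level are given as log2 fold changes, with minus without PDGF-BB. Most were small. A change was called weak when its log2 fold change was under 0.5 in size. By that limit 252 of the falls (2.08% of genes tested; 80.5% of the falls) were weak, as were 459 of the rises (3.79% of genes tested; 73.6% of the rises). The median log2 fold change was -0.316 for the falls and 0.333 for the rises, against -0.00733 over all tested genes. Beyond 1 on the log2 scale there were 12 falls and 37 rises. The weak falls were genes with many reads behind them, with a median of 67.6 CPM without PDGF-BB, against 12.1 CPM for the 61 larger falls and 28.1 CPM for all tested genes. In the lowest of 4 equal bins of genes by CPM, 30 genes fell and 0 of these were weak, whereas in the highest bin 119 fell and 116 were weak. So the size at which a fall could pass followed the read count behind the gene. Without the replicate number in the model, 125 genes fell and 367 rose, and with libraries scaled by spike-in counts 54 fell and 120 rose. All 313 genes kept a negative log2 fold change in both of these fits. The 313 genes were chosen as lower in these same libraries, so their kept sign is no separate support.

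**Figure D1:**
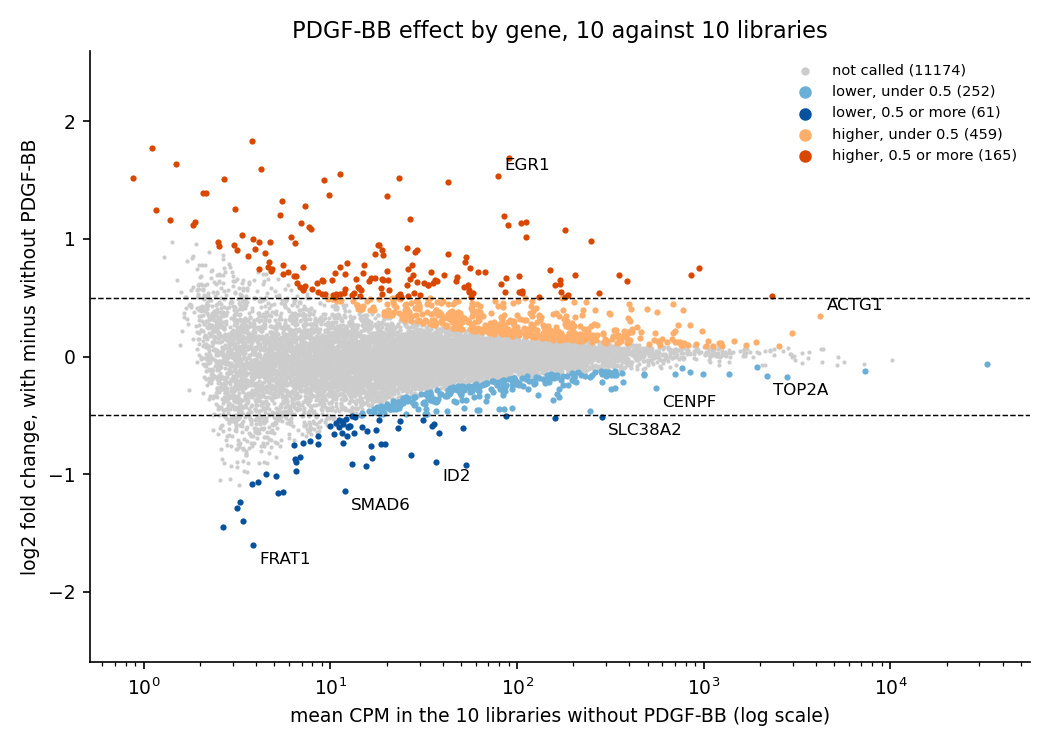
Each point is 1 of the 12111 tested genes, with its mean CPM in the 10 libraries without PDGF-BB on a log scale (x) against its log2 fold change, with minus without PDGF-BB (y). Dashed lines mark 0.5 and -0.5; the pale blue band of 252 weak falls lies toward the right, and the 61 larger falls lie toward the left.

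The clearest falls were those in which every library with PDGF-BB lay below every library without it. Only 7 of the 12111 genes did so (0.0578%), against 51 genes in the upward direction (0.421%). They were the developmental transcription factor ZIC2, the Wnt co-repressor TLE4, the RNA silencing factor TNRC6B, the mitotic protein CENPF, the amino acid transporter SLC38A2, the nuclear receptor coactivator PNRC1 and the E-protein TCF4. PNRC1 is named because of this count, after its values were seen. SLC38A2 (ENSG00000134294, chromosome 12, 46358189 to 46372867, GRCh38), which imports glutamine and other neutral amino acids, had the smallest p of all falls. Its level ran from 264 to 309 CPM (median 278) without PDGF-BB and from 176 to 226 CPM (median 202) with it. The change was -0.51 on the log2 scale (SE 0.04, adjusted p 1.29e-19), and it was -0.50 without eNAMPT and -0.52 with it. TLE4 (ENSG00000106829, chromosome 9, 79571773 to 79726882) lay at 221 to 272 CPM (median 243) without PDGF-BB and at 156 to 219 CPM (median 172) with it. That amounts to -0.47 on the log2 scale (SE 0.05, adjusted p 2.2e-16), a weak fall by the limit used here although no library overlapped. TCF4, which dimerizes with tissue-specific helix-loop-helix factors, went from a median of 157 CPM (146 to 164) to 122 CPM (101 to 143), a change of -0.37 on the log2 scale (SE 0.05, adjusted p 7.2e-09). TNRC6B, a scaffold of the microRNA silencing complex, went from a median of 166 CPM (152 to 187) to 136 CPM (103 to 151). CENPF, a kinetochore protein made as cells approach division, had 532 to 595 CPM (median 544) without PDGF-BB and 381 to 525 CPM (median 481) with it. The change of CENPF was -0.27 on the log2 scale (SE 0.04, adjusted p 2.62e-09). In each of the 7 genes but SLC38A2 the gap between the arms was narrow. Calls for all 7 genes held without the replicate term, and for all but CENPF with spike-in scaling.

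KIT, a receptor tyrosine kinase related to PDGFRB, went from 15.5 CPM ± 4.16 to 8.31 CPM ± 4.22 (SD, n = 10), with 9 of 10 libraries below the mean of the others and a change of -0.93 on the log2 scale (SE 0.17, adjusted p 2.34e-05). PGF, a ligand of the VEGF family made by mural and other stromal cells, went from 84.8 CPM ± 13.1 to 63.1 CPM ± 17.1, a weak fall of -0.44 (SE 0.07, adjusted p 1.3e-07).

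**Figure D2:**
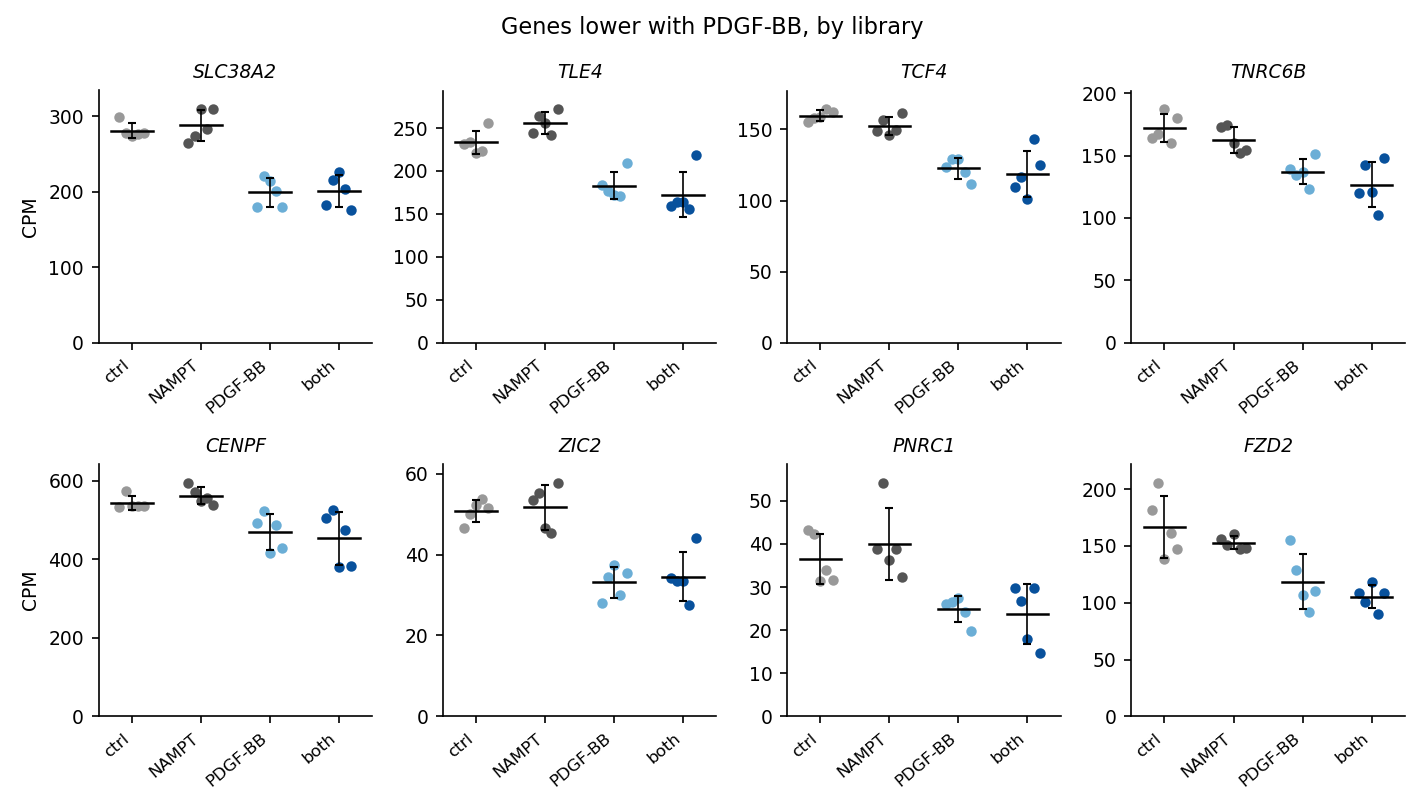
CPM (y, from 0) of 8 falling genes in each library of the 4 groups (x; "both" is NAMPT+PDGF-BB), with the mean as a line and the SD as a bar (n = 5). In SLC38A2, TLE4, TCF4, TNRC6B, CENPF, ZIC2 and PNRC1 all blue points lie below all grey points; in FZD2 the arms overlap.

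Genes of the BMP pathway fell more often than they rose. Of 28 tested members, 7 fell and 3 rose, where 2.58% and 5.15% of all genes did; the list's median was -0.138 and 18 members were below 0. The 7 falls became 4 with spike-in scaling, 5 without the replicate term and 3 in a fit of only the libraries without eNAMPT. This list and the other gene lists of the account were chosen with earlier results of these data known. Their shares beside those of all tested genes are therefore descriptions and no separate support. The fallen BMP members were targets, transducers and a ligand, and the risen BMP members were secreted BMP antagonists and a homeobox factor. SMAD6 (ENSG00000137834, chromosome 15, 66702228 to 66782848), the inhibitory SMAD that BMP signalling itself induces, had 9.47 to 17.0 CPM (median 11.5) without PDGF-BB and 3.24 to 9.94 CPM (median 5.6) with it. Its change of -1.14 on the log2 scale (SE 0.20, adjusted p 2.99e-06) was -0.99 without eNAMPT and -1.30 with it. A single PDGF-BB library, at 9.94 CPM, reached into the range of the others.

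The ID genes encode helix-loop-helix proteins that bind other such factors and block them from DNA. ID2 (ENSG00000115738, chromosome 2, 8678845 to 8684453) ran from 25.1 to 54.5 CPM (median 35.7) without PDGF-BB and from 14.8 to 30.2 CPM (median 17.9) with it. Its change was -0.90 on the log2 scale (SE 0.11, adjusted p 1.26e-11). ID3 changed less, from a median of 326 CPM (242 to 357) to 259 CPM (244 to 302), with all 10 PDGF-BB libraries below the mean of the others. That weak fall of -0.28 (SE 0.04, adjusted p 7.95e-08) was lost with spike-in scaling (adjusted p 0.0905). For ID3 the change was -0.16 without eNAMPT (adjusted p 0.121) and -0.39 with it (adjusted p 4.65e-08), although the interaction did not pass. ID1, at 177 to 247 CPM (median 202) and 122 to 231 CPM (median 181), overlapped widely, and only 7 of 10 PDGF-BB libraries lay below the mean of the others. Its change of -0.21 on the log2 scale (SE 0.05, adjusted p 0.000586) did not pass without the replicate term (adjusted p 0.17) or with spike-in scaling (adjusted p 0.243). For ID1 it was -0.09 without eNAMPT (adjusted p 0.592) and -0.34 with it (adjusted p 9.74e-05), and again the interaction did not pass.

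BMP4, a ligand of the pathway, had 11.7 to 22.2 CPM (median 15.4) without PDGF-BB and 6.63 to 11.8 CPM (median 8.92) with it, and the arms met only at their edge. The change was -0.86 on the log2 scale (SE 0.15, adjusted p 6.36e-06). ATOH8, a helix-loop-helix factor known as a BMP target in endothelium, went from 16.4 CPM ± 2.77 to 9.87 CPM ± 3.38 (SD, n = 10), with -0.76 (SE 0.16, adjusted p 0.000186). For ATOH8 the change was -0.58 without eNAMPT (adjusted p 0.162) and -0.96 with it (adjusted p 0.00271), although the interaction did not pass. SMAD9, a receptor-regulated SMAD, went from 11.1 CPM ± 2.09 to 7.75 CPM ± 2.23. Its adjusted p of 0.0455 was lost in 15 of the 20 fits that left out 1 library, reaching 0.118 without NAMPT replicate 4, and was 0.0906 without the replicate term. In the other direction FST, the secreted antagonist follistatin, went from a median of 52.1 CPM (41.0 to 84.6) to 97.9 CPM (63.9 to 134). That rise was 0.76 (SE 0.07, adjusted p 4.52e-18). GREM1, the BMP antagonist gremlin, went from a median of 850 CPM (746 to 952) to 995 CPM (905 to 1147), a weak rise of 0.27 (SE 0.03, adjusted p 1e-12) seen in all 10 libraries. MSX1, a homeobox gene that BMPs induce in embryonic mesenchyme, also rose weakly, by 0.34 (SE 0.05, adjusted p 1.38e-09), against the direction of the ID genes.

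**Figure D3:**
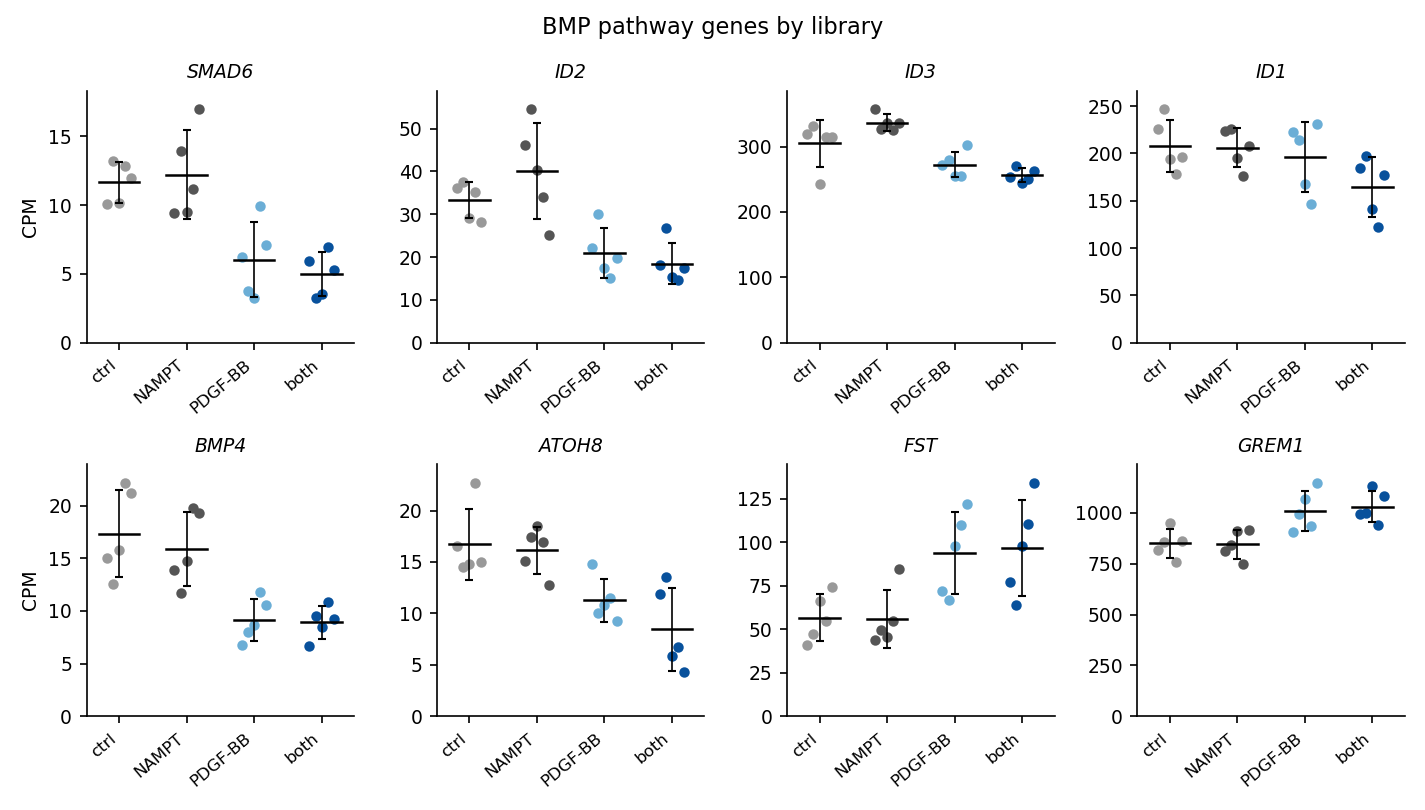
CPM (y, from 0) of 8 BMP pathway genes in each library of the 4 groups (x; "both" is NAMPT+PDGF-BB), with mean and SD (n = 5). SMAD6, ID2, BMP4 and ATOH8 lie lower in both groups with PDGF-BB, ID3 and ID1 shift by less, and the antagonists FST and GREM1 lie higher.

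Wnt pathway genes moved both ways. Wnt ligands bind Frizzled receptors and the co-receptors LRP5 and LRP6, FRAT proteins restrain GSK3, and TCF/LEF factors with TLE co-repressors act on the target genes. Of 36 tested members 6 fell (16.7%, against 2.58% of all tested genes) and 4 rose (11.1%, against 5.15%), and the median of -0.0207 lay near that of all genes, -0.00733. The falls numbered 4 with spike-in scaling, and 3 and 2 in fits of only the libraries without and with eNAMPT. The receptor gene FZD2 (ENSG00000180340, chromosome 17, 44557459 to 44559570) had 138 to 206 CPM (median 154) without PDGF-BB and 90.3 to 155 CPM (median 109) with it, so that 1 library, PDGF-BB replicate 1, reached into the range of the others. The change was -0.52 on the log2 scale (SE 0.06, adjusted p 5.39e-14). TCF7L2, a nuclear effector, went from 61.2 CPM ± 8.69 to 44.5 CPM ± 6.53 (SD, n = 10), with -0.46 (SE 0.08, adjusted p 6.4e-06). LRP5 had -0.59 (SE 0.18, adjusted p 0.02), a call lost without NAMPT replicate 2 (adjusted p 0.0806) and in 1 other such fit. The risen members were the secreted inhibitors DKK1 (0.47, SE 0.08, adjusted p 4.45e-06) and DKK3 (0.14, adjusted p 0.0394, lost in 10 of 20 fits without 1 library and 0.177 without PDGF-BB replicate 5), the receptor FZD8 (0.50, adjusted p 0.000757) and the factor TCF7 (0.65, adjusted p 0.00466).

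The paired genes FRAT1 and FRAT2 both fell. FRAT1 had the most negative log2 fold change of all called genes, -1.60 (SE 0.37, adjusted p 0.000943), at a low level of 1.63 to 7.51 CPM (median 3.23) without PDGF-BB and 0.349 to 2.07 CPM (median 1.11) with it. FRAT2 went from 12.7 CPM ± 3.13 to 8.53 CPM ± 2.59 (SD, n = 10), with -0.59 (SE 0.17) and an adjusted p of 0.0175 that was lost in 4 of 20 fits without 1 library (0.0606 without NAMPT replicate 3). In both genes all 10 PDGF-BB libraries lay below the mean of the others. The genes lie close together on chromosome 10, and how reads that match both were counted was not examined. Their promoters are shown because they carry the same FOXO-type motif near the start of transcription, as does that of JMY, while EGR1 is shown as a riser with other elements. The sequences are RefSeq promoters on GRCh38.p14, from 250 bases before to 50 after the start, with capitals marking GTAAACA or its complement TGTTTAC in the first 3 and the CArG box, the element bound by serum response factor, in EGR1.
FRAT1: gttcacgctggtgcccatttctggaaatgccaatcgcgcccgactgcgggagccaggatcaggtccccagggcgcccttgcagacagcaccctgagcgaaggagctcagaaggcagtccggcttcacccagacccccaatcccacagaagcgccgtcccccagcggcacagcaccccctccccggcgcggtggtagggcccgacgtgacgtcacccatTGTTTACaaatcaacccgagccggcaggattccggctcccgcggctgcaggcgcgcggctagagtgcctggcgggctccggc
FRAT2: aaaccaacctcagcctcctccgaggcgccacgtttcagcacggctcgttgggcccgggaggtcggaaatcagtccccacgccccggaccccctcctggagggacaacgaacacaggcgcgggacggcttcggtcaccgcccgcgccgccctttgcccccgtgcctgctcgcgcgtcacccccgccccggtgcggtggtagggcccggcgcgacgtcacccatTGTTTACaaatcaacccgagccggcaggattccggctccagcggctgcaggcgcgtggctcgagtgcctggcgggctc
JMY: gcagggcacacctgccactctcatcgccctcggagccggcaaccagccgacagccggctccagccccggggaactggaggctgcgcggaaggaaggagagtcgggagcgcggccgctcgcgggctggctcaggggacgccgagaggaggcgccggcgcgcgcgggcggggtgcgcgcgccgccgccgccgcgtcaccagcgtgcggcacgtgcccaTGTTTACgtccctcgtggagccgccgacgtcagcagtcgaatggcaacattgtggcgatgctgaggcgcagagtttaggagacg
EGR1: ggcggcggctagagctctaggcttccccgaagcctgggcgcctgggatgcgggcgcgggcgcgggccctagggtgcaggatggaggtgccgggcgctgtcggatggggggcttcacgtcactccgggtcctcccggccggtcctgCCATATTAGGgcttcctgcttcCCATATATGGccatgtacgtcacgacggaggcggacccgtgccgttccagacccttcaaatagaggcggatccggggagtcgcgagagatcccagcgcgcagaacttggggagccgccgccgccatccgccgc
FRAT1 (chr10:97319021-97319320, + strand) and FRAT2 (chr10:97334680-97334979, - strand) share an unbroken run of 51 bases that holds the motif, so their matches are not independent. The motif began 32 bases before the start in FRAT1, 28 in FRAT2 and 34 in JMY (chr5:79235881-79236180, + strand). JMY, a p53 cofactor and actin nucleator, fell from a median of 27.2 CPM (20.8 to 31.7) to 14.3 CPM (6.51 to 22.2), with -0.84 (SE 0.12, adjusted p 3.78e-08). The 2 CArG boxes of EGR1 (chr5:138465229-138465528, + strand) began 105 and 83 bases before its start, and this immediate early gene rose from a median of 72.2 CPM (56.9 to 108) to 224 CPM (172 to 283), by 1.53 (SE 0.05, adjusted p 3.6e-54).

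Over the 6492 tested genes with a single promoter in the table, the FOXO motif stood in 133 (2.05%). It stood in 7 of the 171 fallen genes (4.09%), namely EZH1, JMY, FCHO2, CEP44, FRAT1, ASB8 and FRAT2, and in 6 of the 311 risen genes (1.93%). The AP-1 element TGAGTCA was in 2.76% of all, 2.34% of fallen and 4.5% of risen promoters, and the CArG box in 0.893%, 0.585% and 1.93%. The cAMP element TGACGTCA was in 3.8% of all, 1.75% of fallen and 4.18% of risen promoters. EGR sites (GCGTGGGCG or GCGGGGGCG) were in 10.1%, 8.77% and 11.6%, and the E-box CACGTG in 10.8%, 10.5% and 8.36%. The BMP SMAD element GGCGCC was in 32.9% of all, 35.1% of fallen and 26.4% of risen promoters. Both strands were searched, each promoter was counted once per motif, and a match is a run of letters and not a measured binding site.

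Transcription factors that pattern embryonic mesenchyme held 6 weak falls. Of 37 tested factors 9 fell (24.3%, against 2.58% of all tested genes) and 5 rose (13.5%, against 5.15%), with a median of -0.137 and 25 below 0. Because this list was chosen with earlier results of these data known, its shares only describe it. ZIC2, a zinc finger factor, had 45.3 to 57.8 CPM (median 51.9) without PDGF-BB and 27.4 to 44.0 CPM (median 33.9) with it, which do not overlap. Its change was -0.61 on the log2 scale (SE 0.09, adjusted p 8.31e-09), nearly the same without (-0.62) and with (-0.59) eNAMPT. Its relative ZIC1 went from a median of 129 CPM (108 to 145) to 109 CPM (79.99 to 120), with -0.32 (SE 0.06, adjusted p 6.45e-06). The homeobox gene SIX4 went from a median of 19.2 CPM (14.0 to 23.6) to 11.0 CPM (7.02 to 15.4), with -0.74 (SE 0.15, adjusted p 5.93e-05). The SIX4 change was -1.04 without eNAMPT (adjusted p 0.000109) and -0.44 with it (adjusted p 0.27), although its interaction did not pass. TWIST1, a helix-loop-helix factor of mesenchymal cells, had -0.37 (SE 0.08, adjusted p 0.001), and NFIB, a nuclear factor I gene, had -0.25 (SE 0.06, adjusted p 0.00145).

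FOXF2 and NFIA stood closer to the threshold. FOXF2, a forkhead factor known from brain pericytes, had -0.46 (adjusted p 0.0209), lost in 5 of 20 fits without 1 library and 0.0653 without NAMPT+PDGF-BB replicate 1. NFIA, a nuclear factor I gene like NFIB, had -0.17 (adjusted p 0.048), lost in 15 of those 20 fits and 0.16 without NAMPT+PDGF-BB replicate 3. In the upward direction TBX3, a T-box repressor, went from a median of 86.2 CPM (60.6 to 114) to 141 CPM (106 to 167), with 0.66 (SE 0.06, adjusted p 3.79e-19). SOX9, a factor of cartilage and fibroblast programs, went from a median of 51.1 CPM (38.3 to 67.0) to 79.3 CPM (63.9 to 88.6), with 0.59 (SE 0.07, adjusted p 2.19e-11). FOXC2 rose by 0.31 (adjusted p 0.011), FOXD1 by 0.17 (adjusted p 0.035, lost in 10 of 20 fits without 1 library and 0.123 without NAMPT+PDGF-BB replicate 4), and TBX2 by 0.49 (adjusted p 0.0446, lost in 12 and 0.134 without that same library). The number of fallen members in this list was 6 without the replicate term, 2 with spike-in scaling, and 3 and 5 in fits of only the libraries without and with eNAMPT.

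FOXO targets and inhibitors of cell cycle entry moved both ways. Of 23 tested FOXO genes and targets 4 fell (17.4%, against 2.58% of all tested genes) and 2 rose (8.7%, against 5.15%), with a median of -0.148, and 2 fell in a fit of only the libraries without eNAMPT. CCNG2, an atypical cyclin of resting cells, went from a median of 14.2 CPM (6.53 to 17.1) to 7.08 CPM (3.51 to 10.6), with -0.91 (SE 0.19, adjusted p 0.000151). TXNIP, which inhibits thioredoxin and glucose uptake, went from a median of 78.9 CPM (63.1 to 93.0) to 56.6 CPM (51.7 to 74.5), a weak fall of -0.44 (SE 0.07, adjusted p 2.27e-07). ARRDC3, an arrestin-like adaptor of receptor trafficking, had -0.49 (SE 0.11, adjusted p 0.000691), with -0.17 (adjusted p 0.717) without eNAMPT and -0.81 (adjusted p 3.52e-05) with it, although its interaction did not pass. KLHL24, a ubiquitin ligase adaptor, had -0.74 (SE 0.23) and an adjusted p of 0.0266 that was lost in 8 of 20 fits without 1 library, reaching 0.17 without NAMPT replicate 3. GADD45A, a stress and growth arrest gene, rose by 0.50 (SE 0.05, adjusted p 7.2e-17), and TRIB1, a pseudokinase, by 0.53 (adjusted p 0.0178, and 0.0558 without NAMPT replicate 1).

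Among 24 tested inhibitors of cell cycle entry, 4 fell (16.7%, against 2.58% of all tested genes) and 2 rose (8.33%, against 5.15%). Their median was -0.154 with 19 below 0, and 2 fell in each of the fits of only the libraries without and only those with eNAMPT. MXD3, an antagonist of MYC, went from a median of 31.5 CPM (22.2 to 38.5) to 20.7 CPM (13.8 to 27.0), with -0.54 (SE 0.11, adjusted p 0.000102). CDKN2C, the CDK4 and CDK6 inhibitor p18, went from a median of 62.3 CPM (48.6 to 79.6) to 45.9 CPM (38.0 to 53.2), with -0.46 (SE 0.08, adjusted p 3.14e-06). HEXIM1, an inhibitor of the elongation kinase P-TEFb, went from a median of 82.9 CPM (76.9 to 92.7) to 69.2 CPM (60.5 to 79.9), with -0.30 (SE 0.07, adjusted p 0.000472). YPEL2 fell from a low level, 5.23 CPM ± 2.03 to 2.45 CPM ± 1.99 (SD, n = 10), with -1.16 (SE 0.31, adjusted p 0.00757). The YPEL2 change was -1.80 without eNAMPT (adjusted p 0.00913) and -0.62 with it (adjusted p 0.554), although its interaction did not pass. CDKN1A, the CDK inhibitor p21, rose instead, from a median of 65.5 CPM (48.1 to 90.3) to 110 CPM (76.9 to 141), by 0.72 (SE 0.07, adjusted p 5.91e-17). BTG3 rose by 0.26 (SE 0.06, adjusted p 0.00101). CDKN1B, the inhibitor p27, stood just outside the threshold with -0.32 (SE 0.11, adjusted p 0.0505).

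The mitosis list held 3 falls, each of them weak. Of 17 tested genes 3 fell (17.6%, against 2.58% of all) and 0 rose, with a median of -0.0823 and 14 below 0, and with spike-in scaling 0 fell. TOP2A, the topoisomerase that untangles chromosomes before division, ran from 2015 to 2559 CPM (median 2111) without PDGF-BB and from 1704 to 2097 CPM (median 1941) with it. Its log2 fold change was only -0.17 (SE 0.03, adjusted p 4.75e-07), with -0.16 and -0.17 without and with eNAMPT. MKI67, the proliferation marker Ki-67, had -0.15 (SE 0.03, adjusted p 0.00077) and did not pass without the replicate term. HMGB2, a chromatin protein abundant in dividing cells and outside the list, went from a median of 329 CPM (289 to 391) to 278 CPM (250 to 302), with -0.26 (SE 0.04, adjusted p 1.28e-07). Among 19 genes of entry into S phase, 0 fell and 1 rose (5.26%). These counts lie near the 2.58% and 5.15% of all tested genes. The riser was 1 weakly changed gene. That gene was CCND1, cyclin D1, which went from a median of 400 CPM (299 to 484) to 545 CPM (472 to 626), a weak rise of 0.45 (SE 0.04, adjusted p 3.35e-20). Fewer dividing cells and less RNA of these genes per cell cannot be told apart in such bulk libraries.

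Other falls with small p lay outside the lists. The bromodomain genes BRD8 (-0.43, SE 0.07, adjusted p 7.97e-08) and BRD3 (-0.32, SE 0.05, adjusted p 1.67e-07) and the chromatin cofactor ATF7IP (-0.51, SE 0.07, adjusted p 1.38e-09), the last just past the limit for a weak fall, each had all 10 PDGF-BB libraries below the mean of the others. BRD3 had 142 to 180 CPM (median 167) without PDGF-BB and 121 to 149 CPM (median 129) with it. Of 22 matrix genes 2 fell and 2 rose (9.09% each, against 2.58% and 5.15% of all tested genes). The fibrillar collagens COL1A2 (-0.15, SE 0.03, adjusted p 8.12e-05) and COL3A1 (-0.20, SE 0.05, adjusted p 0.00379) fell, and neither passed without the replicate term. TGFBR3, the co-receptor betaglycan, was the only faller among 15 TGF-beta genes (-0.68, SE 0.18, adjusted p 0.00451), of which 4 rose. That is 6.67% lower and 26.7% higher, against the same 2.58% and 5.15%. Of 418 genes named as ZNF, ZSCAN or ZKSCAN zinc finger genes 7 fell (1.67%, below the 2.58% of all tested genes) and 1 rose (0.239%), with a median of -0.026. At the threshold, JMJD1C (-0.19, adjusted p 0.0494) and GOLGA3 (-0.15, adjusted p 0.0493) lay just inside, and CDKN1B and RUFY3 (-0.26, adjusted p 0.0505) just outside.

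The largest falls came from thinly read genes. Of the 12 beyond 1 on the log2 scale, only SMAD6 had a mean above 10 CPM in libraries without PDGF-BB. VLDLR, a lipoprotein and reelin receptor, had 1.63 to 5.32 CPM without PDGF-BB and 0 to 2.95 CPM with it (-1.40, SE 0.38, adjusted p 0.00672). MSS51, a muscle mitochondrial gene, had 0.267 to 4.90 CPM and 0 to 2.44 CPM (-1.45, SE 0.42), and its adjusted p of 0.0157 became 0.0689 without NAMPT replicate 4. Others of this size lost their calls more often, PCDHGB6 in 16, CCDC30 in 12, GAA in 9 and DRP2 in 7 of the 20 fits that left out 1 library. SMAD6, ID2, ID3, BMP4, KIT, ZIC2, SIX4, FZD2, TLE4, SLC38A2, CCNG2, TXNIP, MXD3 and CDKN2C lost theirs in none.

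Weak rises included abundant structural genes. ACTG1, cytoplasmic gamma-actin, went from a median of 4126 CPM (3721 to 4820) to 5468 CPM (4655 to 6268), a rise of 0.35 (SE 0.02, adjusted p 1.73e-26). TIMP3, an inhibitor of matrix metalloproteinases, went from a median of 712 CPM (543 to 808) to 951 CPM (820 to 1030), without overlap (0.45, SE 0.03, adjusted p 5.13e-25). ZFP36L1, which destabilizes mRNAs with AU-rich elements, did not overlap either, at 443 to 556 CPM (median 492) and 566 to 713 CPM (median 656). Contractile and actin genes rose in 8 of 26 (30.8%, against 5.15% of all tested genes). They fell in 1 of 26 (3.85%, near the 2.58% of all tested genes), which was JMY. The risers included the smooth muscle markers CNN1 and SMTN. Ribosome biogenesis genes rose in 9 of 21 (42.9%, against 5.15%), all weakly, and fell in 0. Over all tested genes the rises numbered 624 in the main fit and 120 with spike-in scaling. For comparison, immediate early genes rose in 18 of 23 (78.3%) and NF-kB and inflammatory genes in 21 of 31 (67.7%), against 5.15% of all tested genes, and 0 of either list fell. With spike-in scaling these were 8 and 15, and in a fit of only the libraries without eNAMPT 10 and 16. PDGFA, a ligand of the same family, rose from a median of 110 CPM (97.7 to 135) to 228 CPM (197 to 254), by 1.02 (SE 0.05, adjusted p 6.38e-40).

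**Figure D4:**
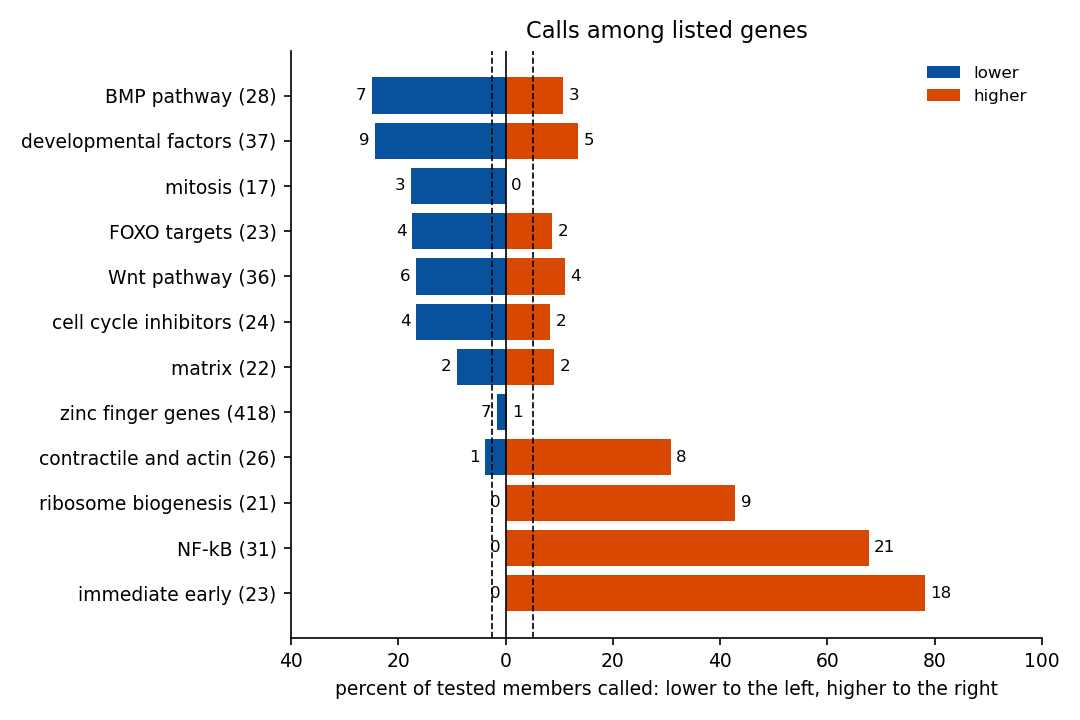
Percent of the tested members of 12 gene lists (tested number in brackets) called lower, to the left in blue, or higher, to the right in orange, with counts beside the bars. The lists were chosen with earlier results of these data known. Dashed lines mark the 2.58% and 5.15% of all tested genes; the BMP list has 7 lower of 28, and the immediate early list 18 higher of 23.

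The libraries without and with eNAMPT gave 2 separate estimates of the PDGF-BB effect. Without eNAMPT 78 genes fell (0.644%) and 299 rose (2.47%), and with eNAMPT 152 fell (1.26%) and 359 rose (2.96%). Of the 78, 68 had a negative log2 fold change with eNAMPT, where their median was -0.269 against -0.482 in their own libraries. Of the 152, 127 were negative without eNAMPT, with a median of -0.15 against -0.408. Only 29 genes passed in both, which is 29 of 78 and 29 of 152, whereas of the rises 191 of 299 and 191 of 359 passed in both. Of the 313 pooled falls 169 (54%) passed in neither pair of groups, 141 of them weak, against 199 of the 624 rises (31.9%). The difference between the pairs of groups, tested as an interaction, passed for 7 genes (0.0578%; 662 at an unadjusted p under 0.05), so that passing in only 1 pair does not show a different effect. Among the pooled falls it passed for the small RNA genes SNORD13 and RNU4ATAC alone.

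**Figure D5:**
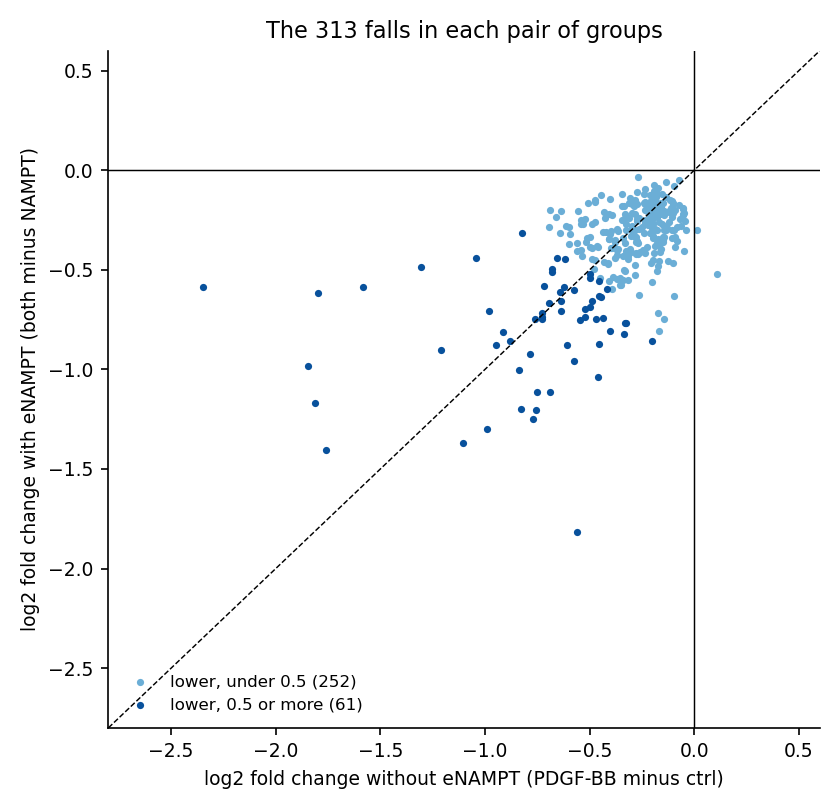
Log2 fold change without eNAMPT (x, PDGF-BB minus ctrl) against that with eNAMPT (y, both minus NAMPT) for the 313 genes that fell in the pooled comparison, with a dashed line of equality. Selection on the pooled value places nearly all points below 0 on both axes; the 61 larger falls scatter most, and SNORD13 (0.11 and -0.52) and RNU4ATAC (0.01 and -0.30) lie right of 0.

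The median span of the fallen genes in the genome was 49.21 kb, against 31.77 kb over all tested genes and 27.32 kb for the rises. The weak falls had 51.21 kb and the larger falls 40.65 kb. In 4 equal bins of gene span, 1.78% of the shortest, 2.05%, 2.64% and 3.86% of the longest genes fell, while 5.61%, 5.52%, 4.92% and 4.56% rose. The longest annotated transcript had a median of 5.217 kb in fallen genes, 3.67 kb in all and 3.732 kb in risen genes. Its GC content was 45.91%, 47.42% and 48.84% in that order. Of the 313 fallen genes 304 were protein coding. The median CPM without PDGF-BB was 20.3 in the bin of shortest genes and 31.0, 31.9 and 28.6 in the others. These are descriptions across genes, which are not independent, and were not tested.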

How the data were processed

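RNA of 20 libraries was counted per gene. The deposited table holds raw counts per gene and library with no normalization. Per the submitters' processing notes, reads were handled with DESeq2 1.18.1, featureCounts 1.6.4, STAR 2.6.1a and FastQC 0.11.7 on GRCh38; whether counting used strand is not given in the sources used here, so reads of overlapping genes on opposite strands may not be told apart. All 58676 gene IDs matched GENCODE 29, and 99 spike-in rows were removed. Genes were filtered with filterByExpr, libraries scaled by TMM, and the 20 libraries entered 1 two-sided quasi-likelihood model (glmQLFit and glmQLFTest of edgeR 4.0.16, R 4.3.3) with PDGF-BB, eNAMPT and replicate number as terms, with Benjamini-Hochberg adjustment over 12111 genes. A model with a mean for each group and the replicate number gave the effect without and with eNAMPT and their interaction. CPM are counts scaled to 1000000 per library after TMM. The SE is the log2 fold change divided by the square root of F. Library measures were compared by permutation tests with 100000 resamples, without regard to eNAMPT or replicate number. The pipeline was tested on simulated counts.

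The replicate number was a term because the comparison was defined so. Correlations of deviations from the group mean between libraries of the same number ran from 0.00138 to 0.176 (median 0.0901; -0.0257 between other numbers), and 12 of 30 pairs were over 0.1.

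The comparison and the gene lists were chosen with earlier results of these data known. Genes named individually had a mean log2 CPM of at least 1 and were the 12 largest falls, the 12 falls and the 10 weak falls with the smallest p, 6 largest and 6 weak rises, up to 4 called genes per list and direction, 11 preset genes and those nearest the threshold; the called members of a described list beyond these 4 were added after their values were seen. Some genes that meet this rule are not reported here. Alternatives were a stricter threshold, other filters, scalings, tools and models, the other deposited count table, and leaving out each library or replicate number.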

Additional observations from a re-analysis of the deposited data

Results flagged for a closer look

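The PDGF-BB effect differed with eNAMPT, by the interaction test of edgeR, for 5 of the genes called in the pooled comparison. The log2 interaction, the effect with minus the effect without eNAMPT, was 0.62 for the cytokine IL11 (adjusted p 0.000968), whose PDGF-BB effect was 0.84 without and 1.46 with eNAMPT. It was -1.05 for the adhesion molecule VCAM1 (adjusted p 0.002; 1.502 and 0.46) and -0.50 for the chemokine CXCL8 (adjusted p 0.0451; 1.99 and 1.49), and these 3 genes rose in both pairs of groups. Among falls it was -0.63 for SNORD13 (adjusted p 0.00015; 0.11 and -0.52) and -0.31 for RNU4ATAC (adjusted p 0.0449; 0.01 and -0.30). Both small RNAs spread widely over libraries, SNORD13 from 116 to 289 CPM without PDGF-BB and from 91.1 to 265 CPM with it, and neither pooled fall passed without the replicate term (adjusted p 0.652 and 0.751).

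A library stood apart from the other 4 of its group, with a gap of more than 71% of the group's range, in 18 of 332 groups of values examined (5.42%); chance alone flags about 1 in 20. Among falling genes these were ID2 in NAMPT+PDGF-BB replicate 2 (26.8 CPM), ID3 in ctrl replicate 3 (242 CPM), ATOH8 in ctrl replicate 4 (22.7 CPM), FRAT2 in ctrl replicate 1 (18.7 CPM), TLE4 in NAMPT+PDGF-BB replicate 5 (219 CPM), SIX4 in PDGF-BB replicate 3 (7.02 CPM) and TWIST1 in ctrl replicate 5 (61.4 CPM). Others were CENPF in ctrl replicate 2 (574 CPM), TOP2A in ctrl replicate 4 (2559 CPM), SLC38A2 in ctrl replicate 1 (299 CPM) and BRD3 in ctrl replicate 1 (142 CPM). Among rising genes these were FST in NAMPT replicate 5 (84.6 CPM), BTG3 in PDGF-BB replicate 4 (120 CPM), EGR1 in ctrl replicate 1 (56.9 CPM), THBS1 in NAMPT replicate 5 (516 CPM) and PDGFA in NAMPT+PDGF-BB replicate 3 (216 CPM). The mitochondrial share was 8.38% in NAMPT replicate 4, below the rest of its group, and spike-in counts were 3.00% of gene counts in PDGF-BB replicate 5, above the rest.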

How the results depend on the processing

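The main counts were 313 falls, 624 rises, 252 weak falls and 459 weak rises, and 78 and 152 falls without and with eNAMPT. Without the replicate block they were 125, 367, 85, 227, 20 and 42. With spike-in scaling, where the median of all genes moved to -0.0754, they were 54, 120, 5, 24, 6 and 28. An adjusted p under 0.01 gave 134 falls, 102 weak falls, 293 weak rises, and 31 and 66 falls by pair of groups. With no filter on low counts, where 26437 genes were tested, there were 200 falls, 147 weak falls and 50 falls without eNAMPT. Fits of only the 10 libraries without eNAMPT gave 60 falls, 246 rises, 35 weak falls and 134 weak rises, and of only those with it 156, 340, 100 and 210. DESeq2 (312 and 624), limma-voom (304 and 634), RLE scaling (316 and 624), averaged group means (325 and 633) and the other count table (327 and 609) stayed near the main counts. Leaving out 1 library gave 233 to 288 falls, 544 to 622 rises, 186 to 226 weak falls, 383 to 455 weak rises, and 47 to 79 and 93 to 160 falls by pair. The lowest values were 47 without PDGF-BB replicate 4 and 51 without ctrl replicate 5 (falls without eNAMPT), and 93 without NAMPT replicate 3 (falls with eNAMPT). Leaving out 1 replicate number gave 179 to 234 falls, 445 to 562 rises, 130 to 172 weak falls, 322 to 394 weak rises, and 45 to 55 and 77 to 121 falls by pair. Replicate numbers 3 and 4 mattered most, with 180 and 179 falls. By the correlations, 12 of 20 libraries were closest to their own number, a hint from the data and not the design. Signs turned for PDGFRA (0.0536), SNORD13 (0.105) and RNU4ATAC (0.0129) in libraries without eNAMPT. For the uncalled neural marker MBP, 0.0396 became -0.213 there and -0.0274 with spike-in scaling. It ran from -0.0312 to 0.145 without 1 library and from -0.0420 to 0.182 without 1 replicate number. The cause of these shifts was not tested beyond the fewer libraries or larger number of genes that some settings hold. All 313 falls stayed negative in each fit of all 20 libraries, which are the libraries that selected them, so this is no separate support. Depth limits small changes in genes with few reads.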
